A study of Mus musculus with 24 samples.

Results

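The probes described here target long noncoding RNAs (lncRNAs) annotated as intergenic, that is, lying between genes, which gave a strong signal in mouse brain or in F9 cells. They were chosen as the probes classed as intergenic among the rows held of the study's lists of lncRNAs expressed in brain (1553 rows) and in F9 cells (1404 rows). Probes in the held parts of the lists of tissue-specific or testis lncRNAs and the snoRNA host genes Gas5 and Snhg were left out. Of 974 intergenic probes, 15 were removed as tissue-listed and 2 as snoRNA hosts, which left 957 members of the 60804 transcript probes of the array. The members are probes and not separate loci, since 12 gene symbols have more than 1 member, with 5 for Meg3. Both lists ran in order of decreasing signal on the first array of their group and were held from the top, so the members are bright on 1 brain or 1 F9 array by construction. The lowest brain-list member, Gm14238, stood at -0.29 and the next, Gm15770, at -0.28, while 56486 probes lay below the last brain row held. The lowest F9-list member, humanlincRNA0575, stood at -0.07 and the next, XLOC_010800, at -0.06, with 57197 probes below. Levels in brain and F9 cells are therefore given only as a description, and the other 6 groups carry the comparisons.

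The study profiled RNA of 8-week-old male ICR mice from brain, heart, kidney, liver and testis, and of the germ cell-related lines F9, GC-1 and GC-2, on 1-colour lncRNA arrays with 3 arrays per group, 24 in all. The labels name no transgene and no treatment for the mice. F9 is a teratocarcinoma line, here undifferentiated and grown on gelatin without retinoic acid, whereas GC-1 and GC-2 are immortalized lines derived from mouse male germ cells, so each line stands for 1 established culture and not for a stage of the testis. Levels are log2 signals relative to the 75th percentile, on each array, of the 13551 probes well above background on all 24 arrays. A level of 0 is thus a bright signal, and "detected" means that the scanner software flagged a probe as well above background. The labels held against their markers: Gap43 and Snap25, which are neuronal, were highest in brain, Mup-ps18 in liver, Star and Stra8 in testis and Zfp42, a stem cell factor, in F9. Stra8 hardly separated testis from F9, at -3.32 and -3.76, and Gap43 was also detected on all 3 arrays of each line. The number of probes detected ran from 18257 on a liver array to 37393 on a testis array. In whole tissue, fewer cells of a type and less RNA per cell cannot be told apart.

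Intergenic lncRNAs are transcribed from their own loci and are usually present at lower levels and in fewer tissues than mRNAs. Malat1 and Neat1 are well-known exceptions, nuclear RNAs present in most tissues, Neat1 being the scaffold of paraspeckles. Many loci annotated as intergenic are processed pseudogenes, copies of an mRNA inserted back into the genome, and a short probe to such a copy may also pair with the mRNA of the parent gene.

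The probe sequences show runs shared between members, but pairing with mRNAs was not tested. Of the 957 members, 209 (21.8%) shared a run of at least 20 bases of their 60-base probe with another member, which linked them into 67 families. The largest family held 22 probes. The following 4 of them are shown because they lie on different loci and hold the same 20-base run, in capitals, which occurs in 7 of the 22. Gm11453 lies at chr2:162982255-162983261 (GRCm38, minus strand), Gm13466 at chr2:45809472-45810470 (plus strand), Gm12864 at chr4:118987014-118988019 (plus strand) and Gm5187 at chr12:107205076-107206066 (minus strand).
Gm11453: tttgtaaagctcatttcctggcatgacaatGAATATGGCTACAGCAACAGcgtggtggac
Gm13466: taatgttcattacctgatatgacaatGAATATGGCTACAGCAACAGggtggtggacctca
Gm12864: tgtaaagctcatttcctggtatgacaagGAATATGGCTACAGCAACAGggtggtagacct
Gm5187: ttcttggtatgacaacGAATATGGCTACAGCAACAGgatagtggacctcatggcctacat

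The annotation of the array listed the glycolytic enzyme mRNA Gapdh as a further target of 3 members. These 3 are shown because they share 55 of their 60 bases, in capitals, while being assigned to 3 chromosomes. The AK186650 probes belong to chr5:13042247-13042550 (minus strand, overlapping Gm10481) and chr8:75405334-75405635 (minus strand, overlapping Gm10358), and AK195420 to chr7:51747503-51747883 (plus strand, overlapping Gm7336).
AK186650 on chromosome 5: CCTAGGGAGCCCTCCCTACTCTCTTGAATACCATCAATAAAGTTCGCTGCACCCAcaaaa
AK195420: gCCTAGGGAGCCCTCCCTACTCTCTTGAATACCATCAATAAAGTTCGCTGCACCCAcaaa
AK186650 on chromosome 8: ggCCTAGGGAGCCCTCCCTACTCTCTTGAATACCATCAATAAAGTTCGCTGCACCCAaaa

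In a further family of 7, Gm11613, AK132462 and mouselincRNA1668 were among the 10 members with the smallest range over the 8 groups, while group means in the family went down to -1.19. The pair below shares a run of 28 bases, within which the capitals mark the 20 bases that occur in 4 of the 7. AK132462 lies at chr11:96836708-96842805 (plus strand) and mouselincRNA1668 at chrX:159507220-159507722 (minus strand, overlapping Gm39546).
AK132462: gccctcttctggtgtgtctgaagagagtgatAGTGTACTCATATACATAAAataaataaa
mouselincRNA1668: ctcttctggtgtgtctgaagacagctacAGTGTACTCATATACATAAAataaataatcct

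By annotation, pseudogenes made up 419 members (43.8%), of which 36 were ribosomal protein pseudogenes. Named lncRNAs accounted for 12 probes, the mitochondrial chromosome for 6 and the rRNA precursor Rn45s for 1, and 519 fell in none of these classes. RefSeq (GRCm38) held 507 of the symbols or accessions. The span of 475 members (49.6%) overlapped a RefSeq pseudogene, that of 165 a RefSeq lncRNA, and that of 150 (15.7%) a protein-coding gene despite the intergenic class, while 231 overlapped no RefSeq gene. The median distance to the nearest coding gene was 14.7 kb over 950 members. Transcripts in a single block, without an annotated intron, made up 82.8% of the pseudogenes and 41.4% of the 519 other members. The median transcript length was 544 bases for pseudogenes and 672 for the others. Chromosome X held 147 members (15.4%), 95 of them pseudogenes. Listed further targets existed for 105 members and included an mRNA for 46.

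Detection was broad. Of the 957 members, 890 (93.0%) were detected on all 24 arrays. The share was 22.3% of all transcript probes and 87.7% of 5195 bright comparison probes. These reached the signal of the last row held on the same brain or F9 array. They include the members and probes of any class, and tissue-listed probes were not removed from them. They were not matched in level, with a median in heart of 0.54 against 1.44 for the members. The choice of members may thus fix part of any contrast with them. All 3 arrays of heart, kidney, liver and testis detected 900 members (94.0%), against 24.1% of all probes and 89.7% of the bright comparison probes. Brightness, which the choice of members fixed, thus went with most of this breadth. Members on both lists were detected on all 24 arrays in 621 of 623 cases, those on the brain list alone in 130 of 175, and those on the F9 list alone in 139 of 159, a contrast that the choice by brain and F9 signal fixes in part.

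Fewer members were detected in liver than in the other tissues, as was true of the array as a whole. All 3 arrays detected 952 members in testis, 942 in heart, 937 in kidney, 930 in GC-1, 930 in GC-2 and 901 in liver. The share in liver was 94.1%, against 90.3% of the bright comparison probes and 26.8% of all probes. In heart, kidney and testis the shares of all probes were 39.8%, 39.5% and 55.3%. No array of the group detected 32 members in liver, 22 in GC-2, 20 in GC-1, 12 in kidney, 8 in heart and 0 in testis. The first liver array had a raised background, with a 95th percentile of negative controls of 13.6 signal units against 2.97 to 4.97 on the other 23 arrays, and without it the count on all arrays was 899. Its part in the remaining liver losses was not tested.

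The members had a slightly smaller median spread over the tissues than all detected probes, by an amount that moved with the scaling. Over the 890 members, the range between the highest and the lowest mean of heart, kidney, liver and testis had a median of 1.46 on the log2 scale (quartiles 0.88 and 2.47). The median was 1.77 for all 13551 probes detected everywhere and 1.72 for the bright comparison probes among them. A range under 2-fold was found in 270 members (30.3%), compared with 20.6% and 23.6% of those probes. Across all 8 groups the medians lay closer together, at 2.54, 2.59 and 2.70, and 20 members stayed under 2-fold. With the percentile over all probes the medians for members and for all probes detected everywhere were 2.29 and 2.32 over the tissues and 3.61 and 3.14 over the 8 groups, so the members then ranged more widely over the groups. These comparisons are descriptions, since members that share sequence are not independent. The plot of levels by class shows the spread of each class in each group. Signals of different probes are not levels on 1 scale, so the classes were not set against each other.

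**Figure D1:**
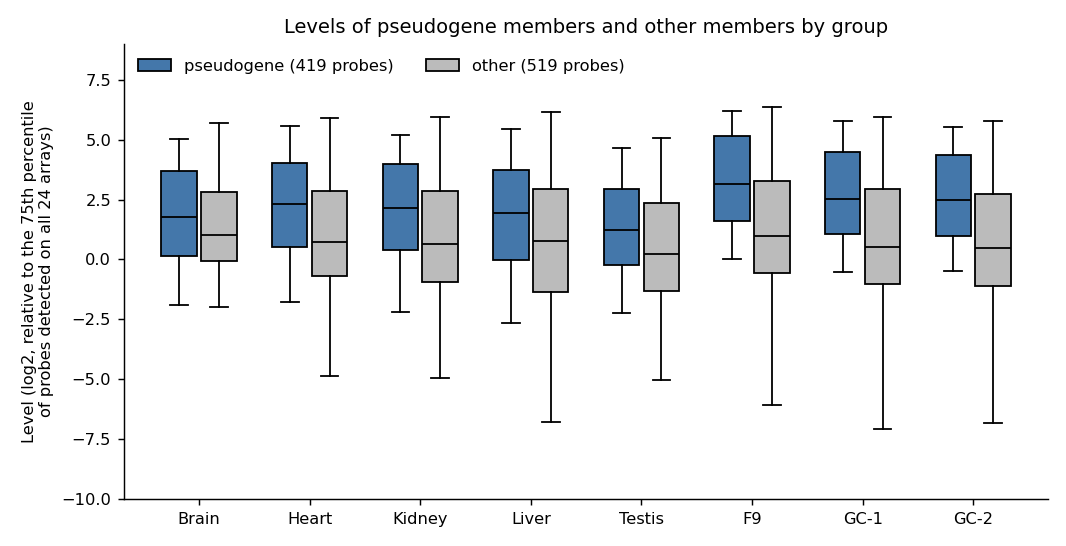
Group mean levels (log2, relative to the 75th percentile of probes detected on all 24 arrays) of 419 pseudogene members and 519 other members in the 8 groups; boxes span the quartiles with the median, and whiskers the 5th to 95th percentile. Pseudogene medians were highest in F9 (3.17) and lowest in testis (1.24); brain and F9 chose the members, and signals of the 2 classes are not on a common scale.

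Of the 957 members, 665 (69.5%) differed among heart, kidney, liver and testis, at an adjusted p of 0.05 or less in the limma fit and at least 2-fold between the highest and lowest tissue. The same call was made for 84.7% of all transcript probes and 77.7% of the bright comparison probes. Among the 665, heart was the highest tissue for 246 (37.0%, against 17.7% of all 51514 probes called), liver for 176 (26.5% against 41.7%), testis for 145 (21.8% against 31.6%) and kidney for 98 (14.7% against 9.04%). Testis was the lowest tissue for 388 (58.3% against 48.9%) and liver for 170 (25.6% against 15.9%). The all-probe shares include probes near background, since only 22.3% of all probes were detected on all 24 arrays. Background levels differed by tissue. Snap25, detected on no array of these 4 tissues, stood at -8.15 in liver, -9.35 in heart, -9.59 in kidney and -10.27 in testis. How far this sets the contrasts with the members was not tested.

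Against the mean of heart, kidney and liver, 132 members were higher in testis and 333 were lower. The background was 26% higher and 38.1% lower over all probes, and 21% higher and 33.7% lower over the bright comparison probes. The shares of members were 13.8% higher and 34.8% lower. The split moved with the scaling, and so did its place beside the background. It was 55 higher and 704 lower when the percentile was taken over all probes, and the lower share was 73.6% against 63.1% of all probes. It was 90 and 436 after quantile normalization, with 45.6% lower against 27.4%, and 114 and 326 after normexp background correction, with 34.1% against 48.6%. The lower share thus lay above that of all probes under 2 of the 4 scalings and below it under the other two. The higher share was below that of all probes in each, at 5.75% against 16.5%, 9.40% against 18.6% and 11.9% against 13.2% for the 3 alternatives. The main scaling was also applied to only the probes detected on all arrays of some tissue. The lower share was then 34.8% against 24.7%, and the higher share 13.7% against 38.7%. The place of the lower share beside the background thus also depended on whether undetected probes were counted. The median difference in testis was -0.54 for the members and -0.53 for all probes, and -1.74 and -1.73 with the percentile over all probes, so that setting moved members and array together. With slide as a block, 138 members were higher and 311 lower.

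**Figure D2:**
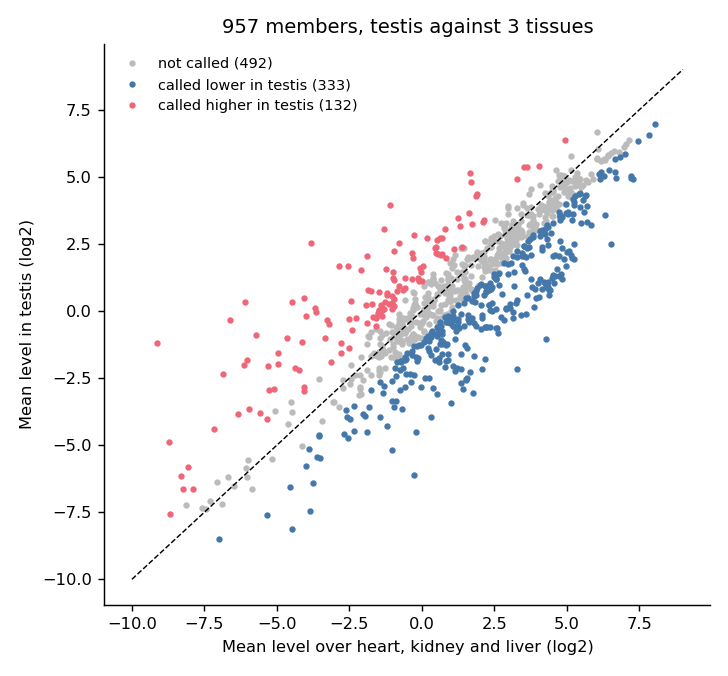
Mean level in testis against the mean level over heart, kidney and liver (both log2) for the 957 members, 1 point each; the dashed line marks equal levels. The 333 members called lower in testis lie below the line and the 132 called higher above it, with 492 not called.

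The 22 linked probes were all lower in testis. Their members, among them Gm14006, Gm11453 and Gm5760, lie on 8 chromosomes, 7 on X and 5 on chromosome 2, and 21 were classed as pseudogenes. Group means ran from 3.75 to 6.34 in heart, 2.02 to 5.21 in kidney, 1.23 to 4.14 in liver and -0.60 to 2.49 in testis. In each of the 22, the highest testis array lay below the lowest of the 9 heart, kidney and liver arrays, which held for 367 members (38.3%) and for 24.2% of all probes. The decrease in testis was 6.67- to 12.9-fold with a median of 9.44-fold, and the largest adjusted p in limma was 3.3e-08. All 22 were also higher in GC-1 and GC-2 than in testis, with median differences of 3.45 and 3.40 on the log2 scale. These counts of 22 held under each of the 3 other scalings. The 22 profiles over the 8 group means correlated with each other at r of 0.98 to 1.00, and since they share sequence they are not independent measurements.

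The 3 probes with Gapdh as a listed target were among the 10 brightest members and fell by less in testis than the 22 did. AK186650 on chromosome 5 stood at 7.39, 8.00 and 8.00 in heart, 7.09, 7.26 and 7.18 in kidney, 6.98, 6.78 and 6.93 in liver, and 4.81, 4.94 and 5.02 in testis. Its testis arrays were apart from all others of these tissues. The difference was -2.36 ± 0.18 (SE, n = 3 per tissue, limma adjusted p = 1.6e-08), and the other two differed by -2.25 and -2.19. After quantile normalization the median difference was -1.38 for these 3 and -3.62 for the 22. Signal from the loci and from the Gapdh mRNA cannot be told apart with these probes. Over the 8 group means, the 22 correlated with these 3 at r of 0.81 to 0.93. No probe was aligned to mRNAs, so whether the 22 also pair with the Gapdh mRNA was not tested.

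**Figure D3:**
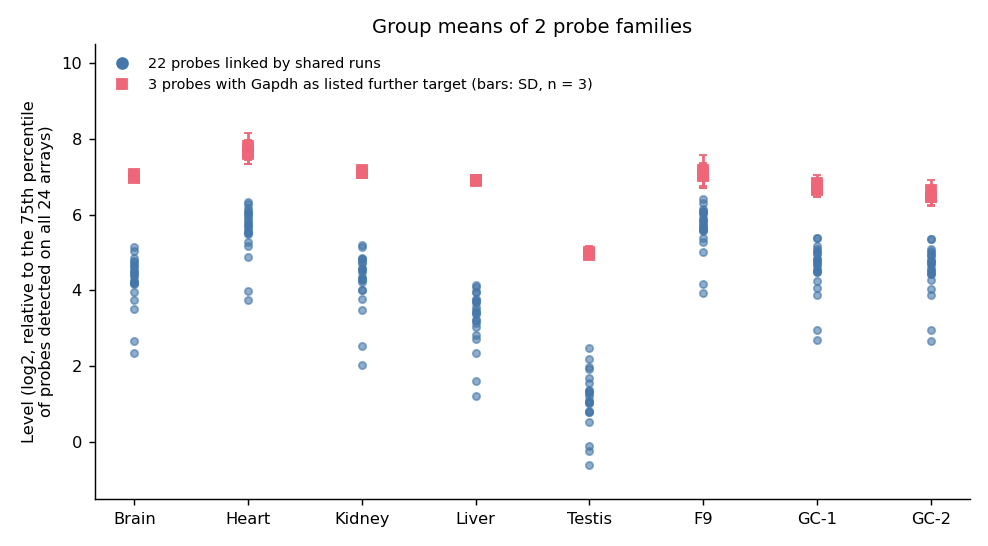
Group mean levels (log2, relative to the 75th percentile of probes detected on all 24 arrays) of the 22 probes linked by shared runs (circles) and the 3 probes with Gapdh as a listed further target (squares, bars are SD, n = 3). Both families were lowest in testis, with means of -0.60 to 2.49 and 4.93 to 5.02.

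Likeness between probes that share sequence was general but not complete. The 183 pairs sharing 20 to 29 bases had a median r of 0.996 over the 8 group means, the 29 pairs sharing 30 to 39 bases 0.993 and the 17 pairs sharing 40 to 59 bases 0.995. Over all 457446 pairs of members the median was 0.17. Of the 229 sharing pairs, 198 had an r above 0.9 and 13 an r below 0.6. The latter included Gm20442 with Gm11613 (26 shared bases, r = 0.09) and AK054439 with humanlincRNA1936 (25 shared bases, r = -0.16). Pairs within the family of 22, all with an r of at least 0.98, are among the sharing pairs, so the pairs are not independent. The 8 means include brain and F9, which chose the members. Points of a pair share their arrays, and no test was attached.

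**Figure D4:**
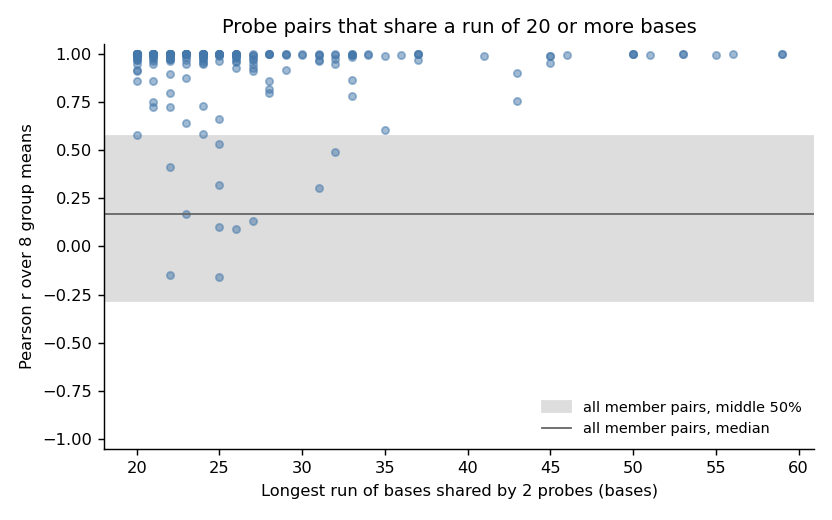
Pearson r of 2 members over the 8 group means against the longest run of bases their probes share, 1 point for each of the 229 pairs sharing 20 bases or more; the band and line give the middle 50% and median of all member pairs. Most points lie above 0.9, and 13 lie below 0.6.

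In testis, 55 pseudogenes were higher (13.1%) and 165 lower (39.4%), and 77 of the 519 other members were higher (14.8%) and 158 lower (30.4%). Over all probes the shares were 26% higher and 38.1% lower. After quantile normalization the lower shares were 46.3% and 44.7%, against 27.4% of all probes, and the difference between the classes was not tested. The 36 ribosomal protein pseudogenes, copies of genes for the protein part of the ribosome, were all detected on all 24 arrays and had a median range over the 4 tissues of 0.98. In testis 10 of them (27.8%) were lower and 0 higher. All 36 were lower when the percentile was taken over all probes, a setting in which 63.1% of all probes were lower. Rpl10-ps4 stood at 5.42, 5.83 and 5.40 in heart, 6.08, 5.68 and 5.72 in kidney, 6.34, 6.11 and 5.77 in liver, and 3.55, 3.06 and 2.97 in testis. Its testis arrays lay below all the others, and the difference was -2.62 ± 0.21 (SE, limma adjusted p = 4.6e-08). Rps25-ps1, at 1.98, 1.91 and 1.88 in testis, overlapped the other tissues, which ran from 1.62 to 2.37, and differed by -0.07 (0.04 with slide as a block).

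The intergenic class was set beside the other classes of the same lists, as a description. The share detected on all 24 arrays was 97.4% for the 191 intronic antisense probes, 96.9% for the 96 intronic sense, 93.0% for the 86 exonic antisense, 91.9% for the 37 bidirectional and 91.1% for the 427 exonic sense probes. The median range over the 4 tissues ran from 1.00 for bidirectional to 1.54 for exonic sense probes, and the intergenic value of 1.46 was close to the 1.48 of the intronic sense class. The median range was 1.40 for members on chromosome X and 1.47 for the rest, and 18.4% of those on X were higher and 36.7% lower in testis, beside the 26% and 38.1% of all probes.

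The germ cell-related lines stood above testis for many members. Testis and the lines shared a slide for their first arrays only, so slide and group are confounded in part in these comparisons. GC-1 was higher than testis for 433 members and lower for 119, against 13.7% and 30.3% of all probes and 35.1% and 20.2% of the bright comparison probes. GC-2 was higher for 412 and lower for 129, against 12.7% and 31.9% of all probes and 33.8% and 21.8% of the bright comparison probes. The shares of members higher, 45.2% and 43.1%, were above both backgrounds. In the same lists they were larger for intronic sense (63.5% and 64.6%) and intronic antisense probes (50.3% and 50.8%). They were smaller for exonic sense (26.7% and 24.8%), bidirectional (24.3% and 13.5%) and exonic antisense probes (22.1% and 22.1%). The counts were 758 and 48 for GC-1 and 753 and 47 for GC-2 with the percentile over all probes, 555 and 80 and 540 and 79 after quantile normalization, and 434 and 105 and 404 and 114 after normexp. The share higher in GC-1 was 79.2%, 58.0% and 45.4% in these settings, against 58.2%, 28.0% and 8.32% of all probes. Both lines were higher for 370 members and lower for 101. Members on the F9 list alone were higher in GC-1 in 94 of 159 cases and lower in 21. Those on the brain list alone were higher in 29 of 175 cases and lower in 67, but higher in 86 and lower in 34 with the percentile over all probes, and 72 and 37 after quantile normalization. The lists were split by brain and F9 signal, so that choice may fix this contrast in part. Of the ribosomal protein pseudogenes 28 of 36 were higher in GC-1 and 27 in GC-2, and 0 were lower in either. Rpsa-ps11, for example, stood at 0.97, 1.34 and 1.31 in testis, 3.69, 3.67 and 4.05 in GC-1 and 3.80, 3.79 and 3.87 in GC-2. The groups did not overlap, and GC-1 was 6.03-fold higher (limma adjusted p = 6.9e-07).

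Among the lncRNAs known by name, Malat1, Neat1 and Dancr were lower in testis. The brightest of 3 Malat1 probes stood at 4.71, 4.46 and 3.38 in heart, 5.35, 4.03 and 4.71 in kidney, 2.54, 2.03 and 2.60 in liver, and 1.60, 2.86 and 1.83 in testis. Testis and liver overlapped, and both lay below heart and kidney. The testis difference was -1.66 ± 0.34 (SE, limma adjusted p = 0.00059), and the other two probes gave -1.75 and -1.90. Without the first testis array, the probe at -1.75 gave -1.27 and was no longer called (limma adjusted p = 0.085). Neat1 varied strongly between arrays, from 0.78 to 4.19 in heart and from -1.64 to 0.76 in testis, with a difference of -2.33 ± 0.68 (limma adjusted p = 0.0065), which became -1.64 and was no longer called without the first testis array (limma adjusted p = 0.063). Dancr, an RNA known for holding cells undifferentiated, stood at -1.36, -1.75 and -1.85 in testis, below every array of the other tissues, and differed by -1.98 ± 0.26 (limma adjusted p = 8.9e-06).

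Tug1 and H19 did not pass. Tug1 stood at 0.66, 0.65 and 0.75 in testis, 0.23, 0.33 and 0.08 in heart, -0.06, 0.21 and 0.03 in kidney and -1.24, -1.32 and -0.61 in liver. Its difference of 0.95 ± 0.20 fell short of 2-fold (limma adjusted p = 0.00071), passed it at 1.02 without the third liver array and was -0.25 with the percentile over all probes. H19, an imprinted RNA of the fetus, stood at 4.17, 5.28 and 5.25 in testis and at 5.71, 7.12 and 6.97 in liver. The first array was the lowest in all 8 groups for this probe. The testis difference was -0.55 ± 0.40 (limma adjusted p = 0.22), or 0.12 after quantile normalization. With the percentile over all probes it was -1.74 and was called (limma adjusted p = 0.00072).

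The 5 probes of Meg3, an imprinted RNA of chromosome 12, disagreed. They are shown because they differ in sequence although their transcripts span stretches of 1 locus that overlap in part.
Meg3, transcript uc007pat.2 at chr12:109544027-109571729: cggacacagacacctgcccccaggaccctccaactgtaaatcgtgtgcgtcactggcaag
Meg3, transcript ENSMUST00000129245 at chr12:109541001-109545319: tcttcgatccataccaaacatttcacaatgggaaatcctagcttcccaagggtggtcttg
Meg3, transcript NR_003633 at chr12:109545398-109568600: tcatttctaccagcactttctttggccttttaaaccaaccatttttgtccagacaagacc
Meg3, transcript ENSMUST00000150851 at chr12:109549255-109549775: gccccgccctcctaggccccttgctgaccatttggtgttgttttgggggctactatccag
Meg3, transcript NR_027651 at chr12:109540996-109568600: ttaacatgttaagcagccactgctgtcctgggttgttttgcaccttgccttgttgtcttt

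The ranges of the Meg3 probes over the 8 group means ran from 2.27 to 12.1 on the log2 scale, and their profiles correlated at r of 0.34 to 1.00. The probe of NR_003633 stood at -4.55, -2.40 and -3.22 in testis, -10.17, -9.82 and -9.80 in GC-1 and -10.65, -9.76 and -9.96 in GC-2. It was not well above background on any array of either line, so testis was at least 20.6-fold above GC-1 and at least 23.5-fold above GC-2. The probe of ENSMUST00000150851 was detected on every array instead, at 2.83, 2.82 and 2.71 in testis and 1.49, 1.68 and 1.22 in GC-1, a difference of -1.32 ± 0.20 (limma adjusted p = 9.2e-05) that was 0.15 with the percentile over all probes. The testis difference of the NR_003633 probe was 1.12 (limma adjusted p = 0.081), and it passed at 1.31 without the third liver array and at 1.70 without the first testis array, while it was -0.07 with the percentile over all probes. The probe of NR_027651 was bright in brain, at 2.20, 2.65 and 1.72, and lay between -8.03 and -5.75 in all other groups.

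**Figure D5:**
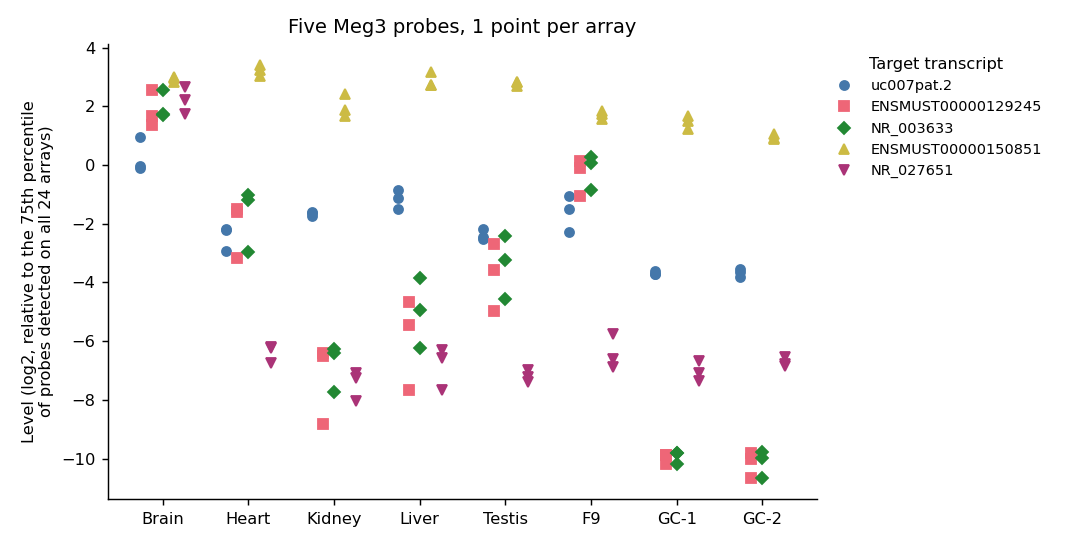
Levels of the 5 Meg3 probes (log2, relative to the 75th percentile of probes detected on all 24 arrays) in the 8 groups, 1 point per array. The probe of ENSMUST00000150851 stayed between 0.89 and 3.42 on every array, whereas those of ENSMUST00000129245 and NR_003633 fell to about the background in GC-1 and GC-2.

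Of the 6 mitochondrial members, 4 were lower in testis, a call made for 38.1% of all probes. AK140265, over the small ribosomal RNA at chrM:70-852 (plus strand), stood at 6.45, 7.24 and 6.86 in heart, 5.80, 5.71 and 5.93 in kidney, 5.94, 6.31 and 6.43 in liver and 3.58, 3.65 and 3.46 in testis. The groups did not overlap, with a difference of -2.73 ± 0.20 (limma adjusted p = 1.2e-08). AK139402 (chrM:15763-16188, minus strand, over no listed gene) fell by 4.28, Atpase6 (over ATP8 and ATP6, parts of the ATP synthase) by 3.06 and Cox2 (over the cytochrome oxidase gene COX2) by 1.14. Cox2 and Rn45s, the rRNA precursor, which fell by 1.25, were among the 10 brightest members, and after quantile normalization neither was called, at -0.11 and -0.17. DQ539915, over COX1, differed by -0.06, by 0.78 after quantile normalization and by -1.25 with the percentile over all probes, where it was called (limma adjusted p = 0.013), and its first array stood apart in liver, at 7.70 against 4.91 and 5.23. GU332589, on the minus strand over the large ribosomal RNA, differed by 0.25 (-0.95 with the percentile over all probes).

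The most even members were mostly either bright and sharing sequence or of medium level. Of the 10 with the smallest range over the 8 groups, 0.68 to 0.89 on the log2 scale, 7 shared a probe run with another member and 5 had a mean above 5. AK139414 had the smallest range. It stood at 0.44, 0.30 and 0.26 in heart, 1.07, 0.85 and 0.89 in kidney, 0.73 on the first and just above 1 on the other liver arrays, and 0.73, 0.90 and 0.67 in testis, with GC-1 and GC-2 between 0.24 and 0.36. Its testis difference of 0.02 became -1.17 with the percentile over all probes. AK132462 stood at 5.53, 5.81 and 5.68 in testis against 5.65 to 6.29 in heart, kidney and liver, a difference of -0.35 that was 0.42 after quantile normalization. Evenness here is relative to the chosen percentile of each array.

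Among the members with the largest range per tissue, Gm6175, Gm6194, humanlincRNA0559, Gm6407 and Gm14857 were detected on all 24 arrays, and XLOC_025889 on 17. AK008716 (chr5:91625188-91626743, plus strand), detected on 21 arrays, stood at 2.65, 2.20 and 2.13 in heart and -2.40, -2.38 and -2.43 in kidney, and was not well above background on any liver array, so heart was at least 328-fold above liver. In kidney, Gm6175 (chrX:100585009-100585408, plus strand) stood at 2.78, 2.82 and 2.81, against -2.76, -2.38 and -2.38 in testis. In liver, humanlincRNA0559 (chr14:56714686-56715350, minus strand) stood at 5.98, 5.18 and 6.12, against -0.68 to 0.56 in heart, kidney and testis. These groups did not overlap. In testis, AK006989 (chr13:113136085-113144012, plus strand, overlapping 1700084D21Rik) stood at 2.26, 2.73 and 2.55, while the other 3 tissues ran from -6.65 to -1.56. It was detected on 23 arrays, all but 1 of liver. The difference was 6.33 ± 0.25 (SE, limma adjusted p = 1.1e-11), and its GC-1 and GC-2 arrays lay between -5.90 and -5.65. Gm14857, a pseudogene on chromosome X, stood at 3.90, 3.90 and 4.02 in testis, 33.1-fold above the mean of the other 3 tissues (limma adjusted p = 1e-11).

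The 10 members detected on the fewest arrays outside brain and F9 were, except for Gm11649 from the F9 list, brain-list probes, and 8 overlapped a protein-coding gene, among them the potassium channel genes Kcnq3, Kcnk9 and Kcnma1 and the neurotrophin receptor gene Ntrk2. Of these 10, 9 were detected on all 3 testis arrays, as were 99.5% of all members and 55.3% of all probes. Several were dim there. Testis means were -7.38 for AK039650, -7.24 for AK012876, -7.08 for AK021108 and -6.65 for A830039N20Rik. They were -6.53 for AK134798 and -6.15 for TCONS_00008304. For AK012876, testis was at least only 1.09-fold above kidney. AK015642 (overlapping Pnmal1) stood at -1.33, -1.06 and -1.15 in testis and was not well above background on any array of heart, kidney, liver, GC-1 or GC-2, so testis was at least 62.2-fold above heart, 72.4-fold above kidney and 28.8-fold above liver. AK032666 (overlapping Rims4, a gene of synaptic vesicle release) stood at -0.41, -0.41 and -0.22 in testis and at -3.58, -3.87 and -2.67 in heart, at least 129-fold above kidney in testis.

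Some further members were picked after their values had been seen. Hba-ps4, a pseudogene of the alpha globin genes on chromosome 17, stood at 6.49, 7.72 and 7.14 in heart, 7.05, 6.81 and 6.23 in liver and 2.75, 2.45 and 2.31 in testis. It was not well above background on any GC-2 array, so testis was at least 1386-fold above GC-2, and in GC-1 it stood at -6.92, -5.78 and -5.45. Gm7856 was the pseudogene with the largest rise in testis, at 0.09, 0.39 and 0.57 against -6.20 to -4.74 in heart and kidney, and was not well above background on any liver array. Gm14630, on chromosome X, went the other way, at -0.88, -1.10 and -1.14 in testis against 3.74 to 4.92 in heart, kidney and liver, which did not overlap with it. The 5 probes of 2210408F21Rik agreed at r of 0.99 to 1.00, but pairs of them share runs of 30 or 50 bases and are not independent. The 3 probes of XLOC_010800, on the strand opposite to Rn18s-rs5, ran from r = -0.68 to 0.93 and differed in testis by 1.64, -1.37 and -1.11.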

How the data were processed

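RNA from 5 tissues and 3 lines was hybridised to 24 single-colour Agilent arrays. The authors deposited scanner output of Feature Extraction 11.5.1.1, in which the processed signal is a background-corrected linear intensity, and a value table that holds the same intensities. The study's brain and F9 lists supplied the member names, classes and probe sequences only, and the lists used for exclusion were held in part. The members, gene lists and tests were chosen with earlier results of these data known.

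Control spots were left out, and 60804 probes remained. Levels are log2 of the deposited intensity minus log2 of the array's 75th percentile over the 13551 probes flagged well above background on all 24 arrays, since 19 arrays had under 50% of the probes flagged. No spot was saturated. limma 3.58.1 in R 4.3.3 (lmFit, eBayes) was fitted to 15 tissue arrays and, for the lines, to 12 arrays of testis, F9, GC-1 and GC-2. P-values were adjusted by Benjamini-Hochberg over all probes, with calls at 0.05 and 2-fold. A probe not flagged on any array of a group has only a bound there, which is the higher, per array, of its own signal and the lowest flagged signal. The fit was tested on simulated data. Positions are on GRCm38, and RefSeq of that build gave gene classes. Ribosomal class came from symbols.

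Named members were the probes of Malat1, Neat1, Meg3, H19, Tug1 and Dancr, mitochondrial members and Rn45s, the 10 brightest, the 10 most even, the 2 with the largest range per tissue, the 10 detected on the fewest arrays outside brain and F9, and the 3 most and 3 least variable ribosomal pseudogenes. Per the study's methods, the 3 samples of a tissue were biological replicates. Whether the cultures of a line were separate is not given in the sources used here, so p-values there measure the spread between samples, which may be technical. Slides, normalization, background correction, filters and single arrays were varied. Probes were not aligned to mRNAs, for which no transcripts were used here.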

Additional observations from a re-analysis of the deposited data

How the results depend on the processing

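The counts depended most on the array percentile and the fold threshold. At 5-fold, 44 members were higher and 111 lower in testis, 141 and 56 in GC-1, and 118 and 54 in GC-2. Over all probes the shares at 5-fold were 15.9% higher and 5.82% lower in testis, 4.97% and 19.1% in GC-1 and 4.59% and 20.1% in GC-2. With the percentile over all probes the counts were 55 and 704, 758 and 48, and 753 and 47, and the median range over the tissues was 2.29, beside 2.32 for all probes detected everywhere. After quantile normalization 79 members were lower in GC-2, and the median range was 1.68 beside 2.19. After normexp it was 1.40 beside 1.52. The cause was not tested. Leaving out 1 array gave 654 to 685 members differing among tissues, 131 to 139 higher and 315 to 345 lower in testis, 424 to 446 and 118 to 123 in GC-1, 398 to 429 and 128 to 135 in GC-2, and 890 to 899 detected on all arrays. The slide as a block gave 646 differing, 138 and 311 in testis, 390 and 123 in GC-1, and 367 and 138 in GC-2.

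Replicate numbers were not taken as pairing, since not every pair of same-numbered arrays correlated above 0.1. Their deviations did lean together, with a median r of 0.25, 0.12 and 0.11 for replicates 1, 2 and 3 against -0.12 for differently numbered arrays. Of the 28 pairs of first arrays, which lay on 1 slide, 26 were above 0.1, and 17 of 24 arrays correlated best with their own number, a hint from the data and not the design. With the replicate number as a block the counts were 668 differing, 132 and 333 in testis, 434 and 119 in GC-1, and 414 and 129 in GC-2.

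Some single testis differences (log2) that changed sign were near 0 or near background, but others were not. In the main fit Tug1 differed by 0.95 and Meg3 (NR_003633) by 1.12. The bright probes XLOC_021682, AK153767, Gm11613, mouselincRNA1668 and 1810064F22Rik differed there by -0.78, -0.80, -0.66, -0.66 and -0.61. With the percentile over all probes the differences of changed sign were Meg3 (NR_003633) -0.072, Meg3 (ENSMUST00000150851) -1.10, Tug1 -0.25, GU332589 -0.95, AK139414 -1.17, XLOC_013897 -0.77, Gm11649 -0.086, AK039650 -1.14, AK012876 -0.30, AK021108 -0.97 and Rplp0-ps1 -1.01. After quantile normalization they were Meg3 (NR_003633) -0.080, H19 0.12, GU332589 -0.13, DQ539915 0.78, XLOC_021682 0.12, AK153767 0.10, AK139414 -0.56, XLOC_013897 -0.32, AK132462 0.42, AK048444 0.44, Gm11613 0.18, 1810064F22Rik 0.19, mouselincRNA1668 0.19, AK039650 -0.83, AK012876 -0.15, AK021108 -0.25 and Rpl30-ps11 0.37. After normexp they were DQ539915 0.014, AK139414 -0.064, Gm11649 -0.78, TCONS_00008304 -0.44, AK039650 -0.92, AK012876 -0.88, A830039N20Rik -0.58 and AK021108 -0.82. With slide as a block they were DQ539915 0.12, AK139414 -0.019, AK039650 -0.0028, Rps25-ps1 0.042 and Rpl30-ps11 0.082. Leaving out 1 array turned the sign of 6 members, which ranged as AK021108 -0.24 to 0.52, AK039650 -0.10 to 0.21, AK134798 -0.16 to 0.14, AK139414 -0.047 to 0.068, DQ539915 -0.23 to 0.23 and Rpl30-ps11 -0.13 to 0.035. Matching probes to mRNAs at set identities was not run. Signal over background limits the liver values most.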
